A study of Mus musculus with 8 samples.

Results

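Bpifa3, Tlcd4, Dydc2, Nudt16l2, Lexm, Ubqlnl, Car2, Efcab1 and Phospho1 are 9 transcripts that were among the deepest losses in mouse round spermatids carrying no wild-type Miwi allele and that belong to different protein families. They were 9 of the 19938 genes measured, and all 9 had a single transcript cluster with a unique symbol on the array. The genes were picked from these same arrays as large falls without a wild-type allele, so their falls in MIWI -/- and MIWI -/KI cells are given below as a description, with no test. The choice also made use of the difference between MIWI -/KI and MIWI +/KI cells, which is likewise untested here.

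Miwi, whose gene is listed as Piwil1, encodes a PIWI protein. It acts with piRNAs in male germ cells from the later steps of meiosis onward and is needed for spermatids to develop past the round stage. PIWI proteins can cut RNA complementary to their bound piRNA. Round spermatids make large amounts of mRNA for the later steps of sperm formation, when the nucleus condenses and the tail is built, and transcription by CREM through cAMP response elements drives many of those genes. Several of the proteins described here are known from cilia or flagella, and others are enzymes of general metabolism.

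The arrays held total RNA of round spermatids from adult C57BL/6 mice in 4 genotypes, with 2 arrays each. MIWI -/- cells had null alleles only, and MIWI -/KI cells paired a null with a knock-in allele. In MIWI +/KI cells the knock-in allele was paired with the wild-type allele, and in MIWI +/- cells the null was. No genotype was wild type on both chromosomes, so MIWI +/- was used as the control here. The labels do not describe the change in the knock-in allele, although the series title points to MIWI catalysis. Testes were dissociated with collagenase, cells were separated on a BSA gradient of 2 to 4%, and round spermatid fractions were pooled. The labels call the arrays biological replicates but do not say how many animals went into each, so the spread that p-values measure may be technical in part.

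The promoter sequences of the genes are shown first, since the members were all picked as large falls and the upstream letters allow a check for the cAMP response element. RefSeq windows (GRCm38.p6) were at hand for 6 of the 9 genes, in 8 windows of 250 bases ending at the base before the annotated start. The genes without a window were Ubqlnl, Car2 and Efcab1. The first 3 windows below are those with the core TGACG, in capitals where it was found on either strand, and the Bpifa3 and Nudt16l2 windows without it follow for comparison, as these genes had the largest mean falls of the 9. They lie at chr3:121263341-121263590 (minus strand), chr4:106617239-106617488 (minus strand), chr11:95824250-95824499 (plus strand), chr2:154130086-154130335 (plus strand) and chr9:105145083-105145332 (minus strand), in the order printed.
Tlcd4: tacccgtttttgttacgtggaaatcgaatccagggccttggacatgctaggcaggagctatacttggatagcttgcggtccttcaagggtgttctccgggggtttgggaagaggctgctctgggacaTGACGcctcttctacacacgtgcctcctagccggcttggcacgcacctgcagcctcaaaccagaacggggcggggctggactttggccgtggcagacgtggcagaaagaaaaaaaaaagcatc
Lexm: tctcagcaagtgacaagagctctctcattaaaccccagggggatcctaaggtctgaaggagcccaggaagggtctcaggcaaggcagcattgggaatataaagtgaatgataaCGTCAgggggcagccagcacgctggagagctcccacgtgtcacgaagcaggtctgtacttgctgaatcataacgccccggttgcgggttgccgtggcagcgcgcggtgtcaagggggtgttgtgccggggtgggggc
Phospho1: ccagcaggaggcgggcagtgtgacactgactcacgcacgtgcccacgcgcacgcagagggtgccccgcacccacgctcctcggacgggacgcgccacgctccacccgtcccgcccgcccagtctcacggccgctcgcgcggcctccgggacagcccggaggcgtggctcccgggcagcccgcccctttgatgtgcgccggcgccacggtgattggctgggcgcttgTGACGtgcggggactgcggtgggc
Bpifa3: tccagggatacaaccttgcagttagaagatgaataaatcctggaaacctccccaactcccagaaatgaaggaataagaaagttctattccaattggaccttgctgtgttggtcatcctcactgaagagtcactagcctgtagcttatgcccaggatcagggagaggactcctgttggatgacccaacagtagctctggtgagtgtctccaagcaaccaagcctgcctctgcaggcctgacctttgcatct
Nudt16l2: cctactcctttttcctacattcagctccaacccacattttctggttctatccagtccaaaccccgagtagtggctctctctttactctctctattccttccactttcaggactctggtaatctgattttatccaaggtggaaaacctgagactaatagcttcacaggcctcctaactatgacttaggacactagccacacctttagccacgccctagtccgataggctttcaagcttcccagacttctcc

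The complete element TGACGTCA was in 0 of the 8 windows, against 1.55% of the 32851 RefSeq windows of this length. The core TGACG, which is also contained in the complete element, was in 3 windows of 3 genes, against 17.8% of all windows. It lay 123 to 119 bases before the start in Tlcd4, 137 to 133 bases before it in Lexm, where the letters read cgtca, and 24 to 20 bases before it in Phospho1. The letters TATAAA were in 1 window, that of Lexm, 154 to 149 bases before the start, against 12.4% of all windows. CCAAT was in 4 windows, against 33.8%, and GGGCGG was in 3 windows of 2 genes, against 32.7%. The 2 windows of Tlcd4 overlap, and 1 GGGCGG site is counted in both. All motifs were searched on both strands, and a match describes letters only.

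The median intensity of an array lay between 66.6 and 71.8. Arrays of the same genotype correlated at 0.970 to 0.995 over all clusters, and arrays of different genotypes at 0.960 to 0.988. The lowest of the 4 same-genotype values was that of the MIWI -/KI pair. The differences between MIWI -/KI and MIWI -/- cells are therefore also summarized with each of these arrays left out. The falls and ranks of single genes are given with all arrays only. Piwil1 itself measured 196 and 151 in MIWI -/- cells, 672 and 696 in MIWI -/KI cells, 679.8 and 749 in MIWI +/KI cells, and 389 and 371 in MIWI +/- cells. By limma with Benjamini-Hochberg adjustment over all clusters it was lower in MIWI -/- than in MIWI +/- cells (log2 difference -1.14, SE 0.17, adjusted p = 0.00771) and higher in MIWI -/KI than in MIWI +/- cells (0.85, SE 0.17, adjusted p = 0.0275). Leaving out MIWI +/- replicate 1 or 2 gave adjusted p = 0.085 and 0.0727 for the first difference. For the second, leaving out MIWI -/KI replicate 2, MIWI +/KI replicate 1 or 2, or MIWI +/- replicate 1 or 2 gave adjusted p from 0.0757 to 0.201. It was also lost with array weights (0.0852) and with only the 2 genotypes in the fit (0.0809).

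Markers of round spermatids were measured for all 13 genes listed, with summed intensities of 18503 and 18849 in MIWI -/- cells, 19866 and 19492 in MIWI -/KI cells, 23961 and 22264 in MIWI +/KI cells, and 25014 and 25980 in MIWI +/- cells. By the test 4 were lower and 1 higher in MIWI -/- cells, and 3 lower and 0 higher in MIWI -/KI cells. Markers of elongating spermatids moved with the 9 genes. Their sum over 11 of 11 genes was 14447 and 14427 in MIWI -/- cells, 16873 and 15381 in MIWI -/KI cells, 32229 and 31274 in MIWI +/KI cells, and 44454 and 40404 in MIWI +/- cells. Of these, 10 passed the test as lower in MIWI -/- and 11 in MIWI -/KI cells, against 3.53% and 3.12% of all genes. Fewer late cells and less of their RNA per cell cannot be told apart in such bulk samples, and the part of this in the falls below was not tested. Spermatocyte markers summed to 7167 to 9834 on the 8 arrays (11 of 12 measured). The test called 1 lower in MIWI -/- and 1 in MIWI -/KI cells, with median log2 differences of 0.13 and 0.15. Their sums differed between replicates, at 8935 and 7167 in MIWI -/- and 7772 and 9834 in MIWI -/KI cells. Markers of Sertoli cells summed to 1232 to 2459 on the 8 arrays (12 of 13 measured; 3 and 4 lower in MIWI -/- and MIWI -/KI cells) and those of macrophages and leukocytes to 1332 to 2350 (8 measured; 2 lower in each). Leydig cell markers summed to 293 to 721 (5 of 7 measured; limma called 0, with 0 and 2 at an unadjusted p under 0.05 in MIWI -/- and MIWI -/KI cells, and median log2 differences of 0.32 and 0.62). Peritubular markers summed to 435 to 663 (5 measured), with median log2 differences of -0.06 and 0.02 in MIWI -/- and MIWI -/KI cells. Limma called 1 of the 5, the smooth muscle actin Acta2, which was 1.61-fold higher in MIWI -/- and 2.19-fold higher in MIWI -/KI cells.

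Bpifa3 and Tlcd4 stand for proteins that deal with lipids and membranes. Bpifa3 (transcript cluster 10477467), of the BPI-fold family of lipid-binding secreted proteins, measured 73.0 and 74.0 in MIWI -/- cells, 117 and 111 in MIWI -/KI cells, 809.5 and 728 in MIWI +/KI cells, and 1828 and 1376 in MIWI +/- cells. Its intensity was 21.6-fold lower in MIWI -/- than in MIWI +/- cells, the deepest fall of the 9 in that comparison, and 13.97-fold lower in MIWI -/KI cells. No 2 genotypes overlapped. Tlcd4 (cluster 10501802), a membrane protein with a TLC domain as in ceramide synthases, measured 70.7 and 76.8 in MIWI -/- cells, 116 and 146 in MIWI -/KI cells, 901 and 845 in MIWI +/KI cells, and 1522 and 1481 in MIWI +/- cells. It was 20.4-fold lower in MIWI -/- and 11.5-fold lower in MIWI -/KI than in MIWI +/- cells, again with the 4 genotypes apart.

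Dydc2, Lexm and Efcab1 have known or likely links to microtubules and cilia. Dydc2 (cluster 10419089) holds a DPY30 motif, the short dimerization segment also found in radial spoke proteins of the axoneme. Its intensities were 55.7 and 70.6 in MIWI -/- cells, 86.1 and 96.9 in MIWI -/KI cells, 565 and 433 in MIWI +/KI cells, and 1218 and 1327 in MIWI +/- cells. That was 20.3-fold lower in MIWI -/- and 13.9-fold lower in MIWI -/KI than in MIWI +/- cells. Lexm (cluster 10514818), first named lymphocyte expansion molecule and since grouped with ciliary microtubule-associated proteins, measured 48.1 and 53.9 in MIWI -/- cells, 76.8 and 70.9 in MIWI -/KI cells, 400.0 and 334 in MIWI +/KI cells, and 831 and 799 in MIWI +/- cells. It was 16.02-fold lower in MIWI -/- and 11.1-fold lower in MIWI -/KI than in MIWI +/- cells. Efcab1 (cluster 10433782) encodes calaxin, a calcium sensor of the outer dynein arm of motile cilia. It measured 31.0 and 27.6 in MIWI -/- cells, 32.3 and 32.1 in MIWI -/KI cells, 151 and 174 in MIWI +/KI cells, and 375 and 346 in MIWI +/- cells. Its values without a wild-type allele were 12.3-fold lower (MIWI -/-) and 11.2-fold lower (MIWI -/KI) than in MIWI +/- cells. For all 3 genes the 4 genotypes stood in the same order, with no overlap between any of them.

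Ubqlnl (cluster 10566309) is a ubiquilin-like protein, and ubiquilins carry ubiquitinated proteins to the proteasome. It measured 129 and 136 in MIWI -/- cells, 217 and 209.8 in MIWI -/KI cells, 1144 and 1014 in MIWI +/KI cells, and 1982 and 2009 in MIWI +/- cells. The fall against MIWI +/- cells was 15.1-fold in MIWI -/- and 9.36-fold in MIWI -/KI cells, and the genotypes did not overlap.

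Car2, Nudt16l2 and Phospho1 are enzymes or relatives of enzymes. Car2 (cluster 10490923), the cytosolic carbonic anhydrase that interconverts carbon dioxide and bicarbonate, measured 101 and 107 in MIWI -/- cells, 145 and 145 in MIWI -/KI cells, 662 and 669 in MIWI +/KI cells, and 1649 and 1459 in MIWI +/- cells. It was 14.9-fold lower in MIWI -/- and 10.7-fold lower in MIWI -/KI than in MIWI +/- cells, with the 4 genotypes apart. Car2 is also abundant in red blood cells, of which 4 of 11 listed markers were measured. Their summed intensity ran from 159 to 226 over the 8 arrays. By limma 1 of these 4, Alas2, was called lower in MIWI -/- and MIWI -/KI cells. The median log2 differences of the 4 were 0.12 and -0.03, and 0 of them had a mean above that of the median gene.

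Nudt16l2 (cluster 10596322), a relative of the nudix hydrolase NUDT16, had intensities of 75.5 and 59.1 in MIWI -/- cells, 101 and 68.8 in MIWI -/KI cells, 602 and 512 in MIWI +/KI cells, and 1572 and 1138 in MIWI +/- cells. The MIWI -/KI arrays overlapped those of MIWI -/- cells and differed by 0.56 on the log2 scale, the widest gap between replicates among the 9 genes. Its fall was 20.03-fold in MIWI -/- and 16.02-fold in MIWI -/KI cells, the deepest of the 9 for MIWI -/KI. Phospho1 (cluster 10380566), a phosphatase of phosphocholine and phosphoethanolamine known for starting bone mineralization, followed another order. It measured 99.0 and 129 in MIWI -/- cells, 85.9 and 75.5 in MIWI -/KI cells, 646 and 579 in MIWI +/KI cells, and 874 and 633 in MIWI +/- cells. Both MIWI -/KI arrays lay below both MIWI -/- arrays, and the MIWI +/KI and MIWI +/- arrays overlapped. It was 6.58-fold lower in MIWI -/- and 9.24-fold lower in MIWI -/KI than in MIWI +/- cells, the smallest falls of the 9.

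**Figure D1:**
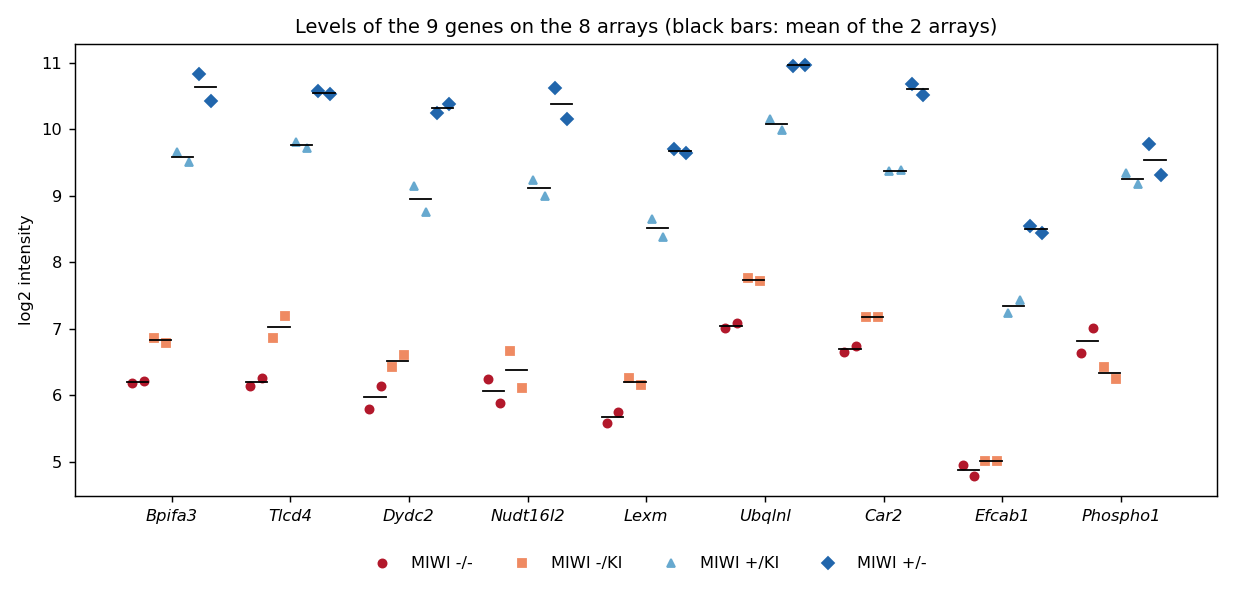
Log2 of the deposited intensity of the 9 genes (vertical axis), with 1 point per array, genotypes set apart by color and shape, and black bars at the mean of the 2 arrays. All 9 genes were lowest on the MIWI -/- and MIWI -/KI arrays, and the MIWI +/KI arrays lay between these and MIWI +/- except for Phospho1, whose MIWI +/KI and MIWI +/- arrays overlapped.

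Averaged over both genotypes without a wild-type allele, the falls ran from 7.80-fold (Phospho1) to 17.9-fold (Nudt16l2), with a median of 13.3-fold. Ranked by that mean fall over all genes, Nudt16l2 stood at place 4, Bpifa3 at 5, Dydc2 at 7, Tlcd4 at 8, Lexm at 12, Car2 at 13, Ubqlnl at 16 and Efcab1 at 18. Phospho1 was at place 43. It was at place 4 for the fall in MIWI -/KI against MIWI +/KI cells, where its intensity was 7.59-fold lower and the other 8 genes were 4.59-fold to 6.76-fold lower. Between Efcab1 (11.7-fold) and the gene at place 19, 1700009J07Rik (11.4-fold), there was no step in size. Every array of MIWI -/- cells and every array of MIWI -/KI cells was below every MIWI +/- array for 9 of 9 genes, as for 22.4% and 18.2% of all genes, and nothing is read from this because the genes were chosen on it.

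The level in MIWI +/KI cells was between MIWI +/- cells and the genotypes without a wild-type allele for 9 of 9 genes. A mean below that of MIWI +/- cells was shared by 104 of the 105 other lost genes described below. The lower of the MIWI +/KI arrays was 4.35-fold to 6.24-fold above the highest array of MIWI -/- or MIWI -/KI cells. MIWI -/KI arrays lie wholly below MIWI +/KI arrays in 24.1% of all genes, and this contrast was part of the choice. Compared with MIWI +/-, the MIWI +/KI mean was 39.2% for Dydc2, 41.1% for Nudt16l2, 42.8% for Car2, 45.0% for Efcab1, 45.0% for Lexm, 48.0% for Bpifa3, 54.1% for Ubqlnl, 58.1% for Tlcd4 and 81.2% for Phospho1. The median was 45.0%. The same ratio had a median of 6.25% in MIWI -/- cells and 8.94% in MIWI -/KI cells. Up to Tlcd4, neighbours in this order differed on the log2 scale by less than their combined standard errors. On the log2 scale, the distance from the mean of MIWI -/- and MIWI -/KI up to MIWI +/- was covered to 66.6% (Dydc2 and Car2) at the least and to 90.4% (Phospho1) at the most, with a median of 69.5%. On the linear scale the median position was 40.5%, so whether MIWI +/KI is nearer to MIWI +/- or to the other 2 genotypes depends on the scale.

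**Figure D2:**
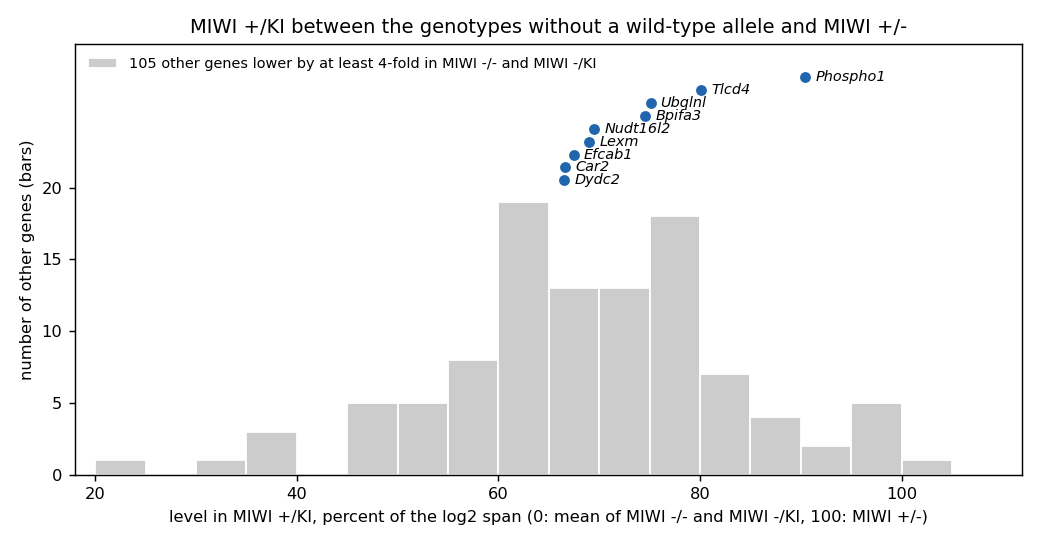
Level in MIWI +/KI (horizontal axis), in percent of the log2 span from the mean of MIWI -/- and MIWI -/KI (0) to MIWI +/- (100). Blue points are the 9 genes, stacked only for legibility, and gray bars count the 105 other genes at least 4-fold lower in both genotypes. The 9 genes lie between 66.6 and 90.4 with a median of 69.5, and the other genes have a median of 69.0.

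This position was shared with other lost transcripts. Of all genes, 114 passed the test as lower in both MIWI -/- and MIWI -/KI than in MIWI +/- cells and were at least 4-fold lower in each, and 105 of them were not among the 9. Their median position was 69.0% (quartiles 61.3% and 77.5%, range 22.4% to 102%), close to the 69.5% of the 9 genes. Phospho1, at 90.4%, and Tlcd4, at 80.1%, were above the upper quartile.

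The difference between MIWI +/KI and MIWI +/- cells was not itself a criterion of the choice, but the arrays of both genotypes entered it, so the values and calls below are not independent of the choice. All 9 genes had a lower mean in MIWI +/KI cells, and for 8 of 9 both arrays were below both MIWI +/- arrays, against 26% of all genes; the exception was Phospho1. By limma, 1 of the 9 passed the threshold of 0.05 over all clusters, against 0.0702% of all genes called lower. This was Car2 (log2 difference -1.22, SE 0.14, adjusted p = 0.0455), which was 2.33-fold lower in MIWI +/KI cells. The other differences were -1.36 for Dydc2 (SE 0.20, adjusted p = 0.0814), -1.27 for Nudt16l2 (SE 0.25, adjusted p = 0.137), -1.16 for Lexm (SE 0.16, adjusted p = 0.0757) and -1.15 for Efcab1 (SE 0.15, adjusted p = 0.0757). They were -1.05 for Bpifa3 (SE 0.18, adjusted p = 0.107), -0.89 for Ubqlnl (SE 0.14, adjusted p = 0.0918), -0.78 for Tlcd4 (SE 0.16, adjusted p = 0.147) and -0.28 for Phospho1 (SE 0.21, adjusted p = 0.715). The Phospho1 difference was -0.051 without MIWI +/- replicate 1 and -0.52 without MIWI +/- replicate 2.

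The number of calls turned on the settings. Across 18 alternatives, the adjusted p of Car2 ran from 0.0024 to 0.832 and its call was lost in 9. Without an array of another genotype, MIWI -/- replicate 1 or 2, it was 0.0587 and 0.0595. Without MIWI +/KI replicate 1 or 2 it was 0.571 and 0.832, and without MIWI +/- replicate 1 or 2 it was 0.468 and 0.370. With array weights, or with the fit kept to these 2 genotypes, 8 of the 9 genes passed, all but Phospho1, while 3.72% and 3.69% of all genes were called lower. With bright clusters only, 6 passed, against 0.753%. All 9 differences stayed below 0 in all 18 alternatives. Among the other 105 lost genes, the median difference was -0.78 and 104 had a lower mean in MIWI +/KI cells. Of these 105, 100 had both MIWI +/KI arrays below both MIWI +/- arrays, and 9 were called lower.

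The comparison of MIWI -/KI with MIWI -/- cells, both without a wild-type allele, sets the knock-in allele against the null allele and was not itself used in the choice. The arrays of both genotypes were, so these values are not independent of it either. By limma 0 of the 9 passed the test, as did 0% of all genes. The smallest adjusted p was 0.0816, that of Piwil1 itself, which was higher in MIWI -/KI cells (log2 difference 1.99, SE 0.17). At an unadjusted p under 0.05 there were 6 of 9 genes (Bpifa3, Tlcd4, Dydc2, Lexm, Ubqlnl and Car2), against 908 of the 19938 genes. Means were higher in MIWI -/KI cells for 8 of 9, and 7 of 9 had both MIWI -/KI arrays above both MIWI -/- arrays, against 11.9% of all genes. The log2 differences were 0.82 for Tlcd4 (SE 0.16), 0.69 for Ubqlnl (SE 0.14), 0.63 for Bpifa3 (SE 0.18), 0.54 for Dydc2 (SE 0.20), 0.54 for Lexm (SE 0.16) and 0.48 for Car2 (SE 0.14). They were smaller for Nudt16l2 (0.32, SE 0.25) and Efcab1 (0.14, SE 0.15). For Phospho1 the difference was -0.49 (SE 0.21), with both MIWI -/KI arrays below both MIWI -/- arrays, as in 10.9% of all genes. Each of the 9 had an adjusted p of 0.998. Single arrays weighed on the last 3 genes. The difference of Nudt16l2 was 0.50 and 0.14 without MIWI -/- replicate 1 or 2, and 0.044 and 0.60 without MIWI -/KI replicate 1 or 2. Without MIWI -/- replicate 1 or 2 it was 0.22 and 0.055 for Efcab1, and -0.68 and -0.30 for Phospho1.

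Leaving out MIWI -/KI replicate 2 kept 8 of 9 differences above 0, with a median of 0.59, and leaving out MIWI -/KI replicate 1 kept 8 with a median of 0.48. Among the other 105 lost genes the median difference was 0.18, with 85 above 0 and 44 with both MIWI -/KI arrays higher. Markers of elongating spermatids also summed higher on the MIWI -/KI than on the MIWI -/- arrays, as did those of round spermatids. The median log2 difference of the elongating markers was only 0.06. It was largest for Tnp2 (0.94), Tnp1 (0.70), Prm1 (0.68) and Prm2 (0.64), and below 0 for Prm3, Odf1 and Gsg1. The part of these markers in the differences of the 9 genes was not tested.

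**Figure D3:**
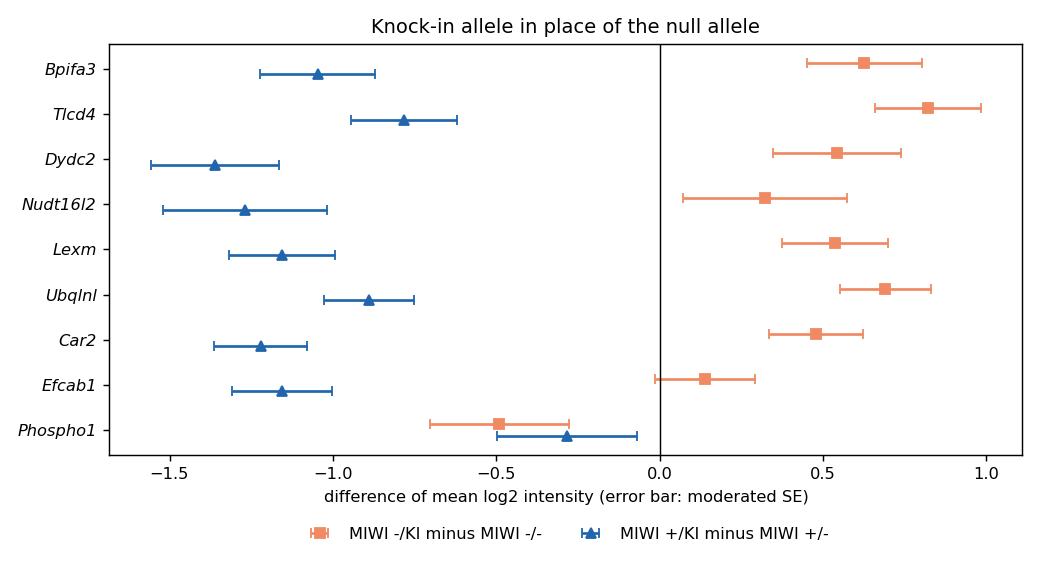
Difference of mean log2 intensity (horizontal axis, bars for the moderated SE) for each of the 9 genes, with orange squares for MIWI -/KI minus MIWI -/- and blue triangles for MIWI +/KI minus MIWI +/-. The squares lie above 0 for all but Phospho1 (-0.49), and the triangles lie below 0 for all 9, nearest to it for Phospho1 (-0.28).

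The 9 genes were low and high on the same arrays, which their choice as large falls fixed in large part. Their geometric mean intensity was 70.3 and 74.0 on the MIWI -/- arrays, 97.5 and 93.8 on the MIWI -/KI arrays, 579 and 527 on the MIWI +/KI arrays, and 1189 and 1052 on the MIWI +/- arrays. The gap between replicates was small beside the gap between genotypes with and without a wild-type allele. Lexm was nearest to the mean profile of the 9, with a root mean square distance of 0.0946 on the log2 scale over the 8 arrays, followed by Car2 (0.130), Ubqlnl (0.134), Dydc2 (0.198), Efcab1 (0.201), Bpifa3 (0.201), Tlcd4 (0.249) and Nudt16l2 (0.249). Phospho1 was farthest at 0.474. The mean profile includes the gene whose distance is taken, which shortens the distances of the 9.

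**Figure D4:**
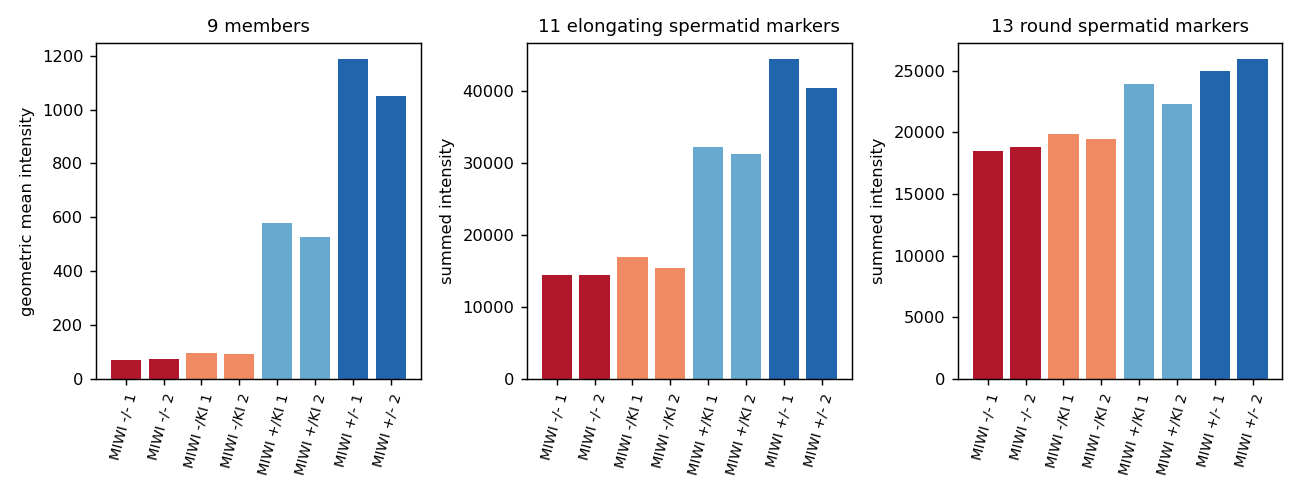
Geometric mean intensity of the 9 genes (left), summed intensity of 11 elongating spermatid markers (middle) and of 13 round spermatid markers (right), with 1 bar per array and axes that start at 0. On the left the MIWI -/- and MIWI -/KI bars lie between 70.3 and 97.5, against 527 to 1189 for MIWI +/KI and MIWI +/-. The elongating marker sums lie between 14427 and 16873 without a wild-type allele, against 31274 to 44454 with one; sums and geometric means are not set against each other in size.

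Other genes had distances within the range of the 9. By this measure, and leaving out uncharacterized loci, the 10 nearest were Klk1b8, a kallikrein-type serine protease (0.146), Agpat2, an acyltransferase of phosphatidic acid synthesis (0.159), Mical3, an actin-oxidizing monooxygenase (0.190), Noxred1 (0.206), Fscn3, the testis form of the actin bundler fascin (0.225), Tex37 (0.240), Acte1 (0.261), Tex46 (0.271), Nqo2, a quinone reductase (0.287) and Trp53tg5 (0.313). Klk1b8, for example, measured 41.2 and 46.0 in MIWI -/- cells, 52.0 and 52.9 in MIWI -/KI cells, 321 and 276 in MIWI +/KI cells, and 611 and 752 in MIWI +/- cells. Its MIWI +/KI position was 69.0%. Agpat2 measured 111 and 133 in MIWI -/- cells, 151 and 144 in MIWI -/KI cells, 852 and 772 in MIWI +/KI cells, and 1529 and 1302 in MIWI +/- cells.

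Relatives of the 9 in their protein families were called about as often as other genes. Of 103 relatives listed, 94 were measured. In MIWI -/- against MIWI +/- cells, 3 were lower and 3 higher by the test, or 6.38% against 6.13% of all genes (3.53% lower and 2.6% higher). In MIWI -/KI against MIWI +/- cells, 3 were lower and 2 higher, or 5.32% against 6.23% of all genes (3.12% lower and 3.11% higher). The median log2 differences of the relatives were -0.00 and -0.04. In MIWI +/KI against MIWI +/- cells limma called 0 of 94, against 0.0953% of all genes, and in MIWI -/KI against MIWI -/- cells 0 of 94, against 0%. At an unadjusted p under 0.05 there were 15 relatives in the comparison of MIWI +/KI with MIWI +/- cells, against 2335 of the 19938 genes, and 5 in that of MIWI -/KI with MIWI -/- cells, against 908.

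The relatives that fell were 1 each from the families of Bpifa3, Lexm and Ubqlnl. Bpifa6, another BPI-fold gene, measured 21.2 and 27.5 in MIWI -/- cells, 26.9 and 29.7 in MIWI -/KI cells, 156 and 119 in MIWI +/KI cells, and 127 and 149 in MIWI +/- cells. It was 5.68-fold lower in MIWI -/- cells (adjusted p = 0.000418 by limma) and 4.86-fold lower in MIWI -/KI cells (adjusted p = 0.000725), and its MIWI +/KI arrays overlapped those of MIWI +/-. Odf3b, of the outer dense fiber 3 genes that share their repeats with ciliary microtubule-associated proteins, measured 83.0 and 81.4 in MIWI -/- cells, 96.9 and 78.7 in MIWI -/KI cells, 445 and 477 in MIWI +/KI cells, and 501 and 487 in MIWI +/- cells. It was 6.00-fold lower in MIWI -/- cells (adjusted p = 0.000145 by limma) and 5.65-fold lower in MIWI -/KI cells (adjusted p = 0.00024). Ubqln5, a ubiquilin, measured 222 and 249 in MIWI -/- cells, 384 and 328 in MIWI -/KI cells, 693 and 518 in MIWI +/KI cells, and 1144 and 1063 in MIWI +/- cells. That made it 4.69-fold lower in MIWI -/- cells (adjusted p = 0.000504 by limma) and 3.11-fold lower in MIWI -/KI cells (adjusted p = 0.00246). These calls held in each alternative in which the gene was tested.

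Relatives that rose were Tlcd2 and Tram2, of the TLC-domain family, and Bpi, the bactericidal lipopolysaccharide-binding protein. Tlcd2 measured 143 and 134 in MIWI -/- cells, 161 and 148 in MIWI -/KI cells, 102 and 95.1 in MIWI +/KI cells, and 79.1 and 72.0 in MIWI +/- cells, with no overlap between genotypes with and without a wild-type allele. It was 1.84-fold higher in MIWI -/- cells (adjusted p = 0.0156 by limma) and 2.05-fold higher in MIWI -/KI cells (adjusted p = 0.00743), the opposite direction to Tlcd4. Tram2 was 1.67-fold higher in MIWI -/- (adjusted p = 0.0461) and 1.73-fold higher in MIWI -/KI cells (adjusted p = 0.034). Bpi was 1.63-fold higher in MIWI -/- cells (adjusted p = 0.0354) and did not pass in MIWI -/KI cells (log2 difference 0.25, adjusted p = 0.516). In MIWI -/- cells all 3 calls were lost without MIWI -/- replicate 2, without either MIWI +/KI array and without either MIWI +/- array (adjusted p 0.0587 to 0.282), and that of Tlcd2 also without MIWI -/- replicate 1 (0.0672). In MIWI -/KI cells those of Tlcd2 and Tram2 were lost without either MIWI +/- array (0.0634 to 0.232), and that of Tram2 also without MIWI -/KI replicate 2 or either MIWI +/KI array (0.0599 to 0.0985). Counting the changes of processing too, the MIWI -/- call was lost in 7 of 18 alternatives for Bpi, 6 for Tlcd2 and 8 for Tram2, and the MIWI -/KI call in 3 for Tlcd2 and 9 for Tram2.

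**Figure D5:**
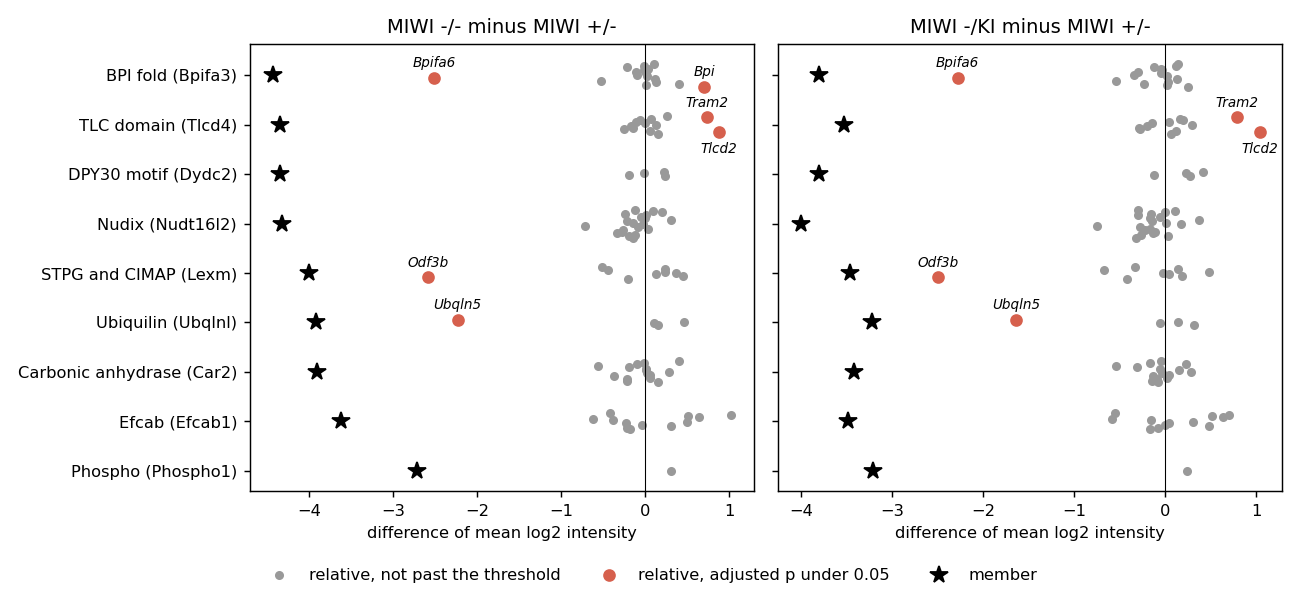
Difference of mean log2 intensity (horizontal axes) of MIWI -/- minus MIWI +/- (left) and MIWI -/KI minus MIWI +/- (right), with 1 row per family, stars for the 9 genes and circles for the 94 measured relatives, red where the adjusted p was under 0.05. Most relatives lie near 0, while Bpifa6, Odf3b and Ubqln5 are on the side of the stars and Tlcd2 and Tram2 on the other.

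Among relatives with similar names, Nudt16, Dydc1 and Car3 are given as examples and were not past the threshold, unlike Ubqln5 and Tlcd2 above. In each comparison with MIWI +/- cells, limma called 1 of 4 measured ubiquilin relatives and 2 of 13 TLC-domain relatives. It called 0 of 20 nudix relatives and 0 of 15 carbonic anhydrase relatives, and did not call Phospho2. All values of Nudt16 and Car3 lay below the lowest array median, 66.6. Nudt16, the nudix hydrolase after which Nudt16l2 is named, measured 58.8 and 54.8 in MIWI -/- cells, 56.6 and 45.3 in MIWI -/KI cells, 54.3 and 52.8 in MIWI +/KI cells, and 56.7 and 57.0 in MIWI +/- cells. Dydc1, the other gene with this DPY30-type name, measured 2259 and 2179.8 in MIWI -/- cells, 2099 and 2456 in MIWI -/KI cells, 1898 and 2242 in MIWI +/KI cells, and 1735 and 2044 in MIWI +/- cells. Car3, a muscle and fat carbonic anhydrase, measured 29.1 and 31.4 in MIWI -/- cells, 36.1 and 27.6 in MIWI -/KI cells, 31.8 and 34.2 in MIWI +/KI cells, and 31.7 and 38.5 in MIWI +/- cells. Each of these 3 genes is also a neighbour on the chromosome of the gene it was set beside.

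The 9 genes lie on 8 chromosomes. Of the 18 measured genes nearest to them on either side, 1 was lower in MIWI -/- and in MIWI -/KI cells and 0 were higher, or 5.56% against 6.13% and 6.23% of all genes. That gene was Ubqln5, the neighbour of Ubqlnl on chromosome 7 and a ubiquilin as described above. The median log2 differences of the neighbours were -0.01 in MIWI -/- and -0.02 in MIWI -/KI cells.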

How the data were processed

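Round spermatid RNA was measured on 8 Affymetrix arrays, 2 in each of 4 genotypes. The deposited values are normalized intensities, not log transformed, with 1 value per transcript cluster and array; the authors used RMA, per the submitters' processing notes, with its version not given in the sources used here. The 35512 clusters were named by the platform annotation (21789 with 1 symbol, 1621 with several, 12102 with none), giving 19938 genes. For genes with several clusters the cluster with the highest mean intensity was used. The value was set to missing in 8 cells, none in the 9 genes, that exceeded 100 times that cluster's median elsewhere.

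Intensities were log2 transformed and fitted with limma 3.58.1 in R 4.3.3 (1 mean per genotype, eBayes with an intensity trend, 4 residual degrees of freedom), with Benjamini-Hochberg adjustment over all clusters at 0.05. The fit was tested on simulated data. The median standard error was 0.178. The number of arrays limits the precision. Named are the 9 genes, Piwil1, relatives and neighbours past the threshold, up to 3 further relatives per family, and the 10 nearest profiles. The members and all lists were chosen with earlier results of these data known. Alternatives tried were no trend, array weights, only the 2 genotypes compared, renewed quantile normalization, median centring, averaged clusters, bright clusters only, a pseudocount of 16, extreme cells kept, a replicate block and each array left out.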

Additional observations from a re-analysis of the deposited data

Results flagged for a closer look

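For 7 of the 9 genes the knock-in allele went with opposite directions in the 2 backgrounds. Beside a null allele, both MIWI -/KI arrays were above both MIWI -/- arrays, and beside a wild-type allele, both MIWI +/KI arrays were below both MIWI +/- arrays. The log2 differences were 0.63 and -1.05 for Bpifa3, 0.82 and -0.78 for Tlcd4, 0.54 and -1.36 for Dydc2, 0.54 and -1.16 for Lexm, 0.69 and -0.89 for Ubqlnl, 0.48 and -1.22 for Car2, and 0.14 and -1.15 for Efcab1, with the null background first. By limma 0 of the 9 genes passed in the null background and 1, Car2, in the wild-type background. The Efcab1 difference of 0.14 had an SE of 0.15. Summed markers of elongating spermatids and those of round spermatids both had the same arrangement of arrays. Median log2 differences in the null and wild-type backgrounds were 0.06 and -0.50 for the elongating markers, and 0.09 and -0.23 for the round markers. The part of either list in this was not tested. The difference between the backgrounds was not tested either. The arrays of all 4 genotypes entered the choice of the 9 genes, so this arrangement is not independent of it. Over all genes, 1085 of 19938 (5.44%) had this arrangement of arrays, as had 44 of the 105 other genes at least 4-fold lower without a wild-type allele. Nudt16l2 had overlapping arrays in the null background. Phospho1 had both MIWI -/KI arrays below both MIWI -/- arrays, and its arrays overlapped in the wild-type background.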

How the results depend on the processing

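The number of the 9 genes called lower in MIWI +/KI than in MIWI +/- cells, 1 as reported, was 8 with array weights, 8 with only the 2 genotypes in the fit, 6 with bright clusters only, 0 after renewed quantile normalization, 0 after median centring and 0 with a replicate block; without 1 array it was 0 to 1. The count of 0 for MIWI -/KI against MIWI -/- held in all 18 alternatives. Of the relatives, 6 were called in MIWI -/- against MIWI +/- cells, and 3 to 8 without 1 array. In MIWI -/KI against MIWI +/- cells 5 were called, against 3 with only the 2 genotypes and 3 to 10 without 1 array (10 without MIWI -/KI replicate 1). In MIWI +/KI against MIWI +/- cells 0 were called, against 8 with array weights and 7 with only the 2 genotypes. The median position of MIWI +/KI, 69.5%, was 71.1% after renewed quantile normalization and 68.5% to 73.6% without 1 array. The median mean fall of the 9, -3.73 on the log2 scale, was -3.50 with a pseudocount of 16, which shrinks low values by construction. The cause of the other shifts was not tested. No result reversed. The replicate numbers do not pair the samples: deviations of same-numbered arrays from their genotype means correlated at -0.26 to 0.30. With the replicate block the adjusted p of Car2 was 0.0839. No background signal was used here, so how far dim values stand above it is unknown.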
